A study of Mus musculus with 12 samples.

Results

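The effect of arachidonic acid (AA) that double negative T cells of either receptor type have in common was described from all 12 RNA-seq libraries of the study, 6 from cells given AA and 6 from cells without it. Double negative T cells carry CD3 but neither CD4 nor CD8. They were sorted live (7-AAD-) from the liver of adult C57BL/6 mice as CD45+ CD3+ NK1.1- CD4- CD8- cells with either the αβ or the γδ T cell receptor. The 4 groups, αβ without AA, αβ with AA, γδ without AA and γδ with AA, held 3 libraries each, and stimulation with AA lasted 48 h. The labels do not say whether the cells without AA were cultured for as long, nor whether replicates came from separate animals. A difference between the groups therefore covers whatever differed in the handling of the cells, and each p-value speaks of the spread among the 12 libraries alone, which may be technical.

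Arachidonic acid is a polyunsaturated fatty acid of membrane phospholipids. Phospholipases release it, cyclooxygenases and lipoxygenases turn it into prostaglandins, thromboxanes and leukotrienes, and these lipids act on T cells through G protein-coupled receptors. The free acid is also readily oxidised, and its reactive products are known activators of NRF2, the transcription factor of the antioxidant response. Prostaglandin E2 is known to restrain T cell proliferation through receptors that raise cAMP. The question put to the counts was which genes stood on the same side with AA in both populations.

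The libraries of αβ with AA were the shallowest, with 6036487 to 17021782 gene counts against 18301268 to 30548253 in the other 9. Pearson correlations between their replicates were also the lowest, 0.560 to 0.691 against 0.803 to 0.899 in the other groups. Replicate 3 without AA of both populations went against its label, since Trdc, the constant region of the δ chain, reached 201 CPM (CPM are counts relative to the size of the library) in the library labelled αβ, whose partners held 3.70 and 5.90 CPM. In the library labelled γδ it was at 11.6 CPM, against 246 and 265 CPM in its partners. For the counts without overlap over all genes and for most gene lists, values without both of these libraries are therefore given as well. With AA, Trdc was at 55.4, 5.35 and 52.8 CPM in αβ and at 208, 197 and 69.8 CPM in γδ. The values above are unscaled CPM, and those below are scaled by TMM. Trac and Trbc2, constant regions of the αβ receptor, averaged 81.6 and 200 CPM in αβ with AA. In γδ with AA they averaged 527 and 882 CPM, so these chains did not follow the labels with AA. Without AA, Trac averaged 494 CPM in αβ and 341 CPM in γδ. Trbc2 averaged 733 CPM in αβ and 907 CPM in γδ without AA, so it did not follow the labels there either. CD3 was found throughout, with Cd3e between 11.99 and 178 CPM. Of the 5 genes of the sort gate for CD3 and CD45, 4 had a negative AA effect in both populations, with a median log2 fold change of -0.71 on average, -1.30 in αβ and -0.44 in γδ. None of the 5 was apart in both populations, and in γδ Cd3e was at -0.02 ± 0.62. Ptprc, the gene of CD45, was apart in αβ alone. There it was at 1081, 1170 and 1093 CPM without AA and at 599, 714 and 665 CPM with AA. The part of the T cell content in the values that follow was not tested. In αβ with AA the mitochondrial genome held 2.54 to 5.43% of the counts, without overlap with 1.09 to 2.48% in αβ without AA, while γδ overlapped, and Gm10800 alone held 21.9% of αβ with AA replicate 3 and at most 1.42% of any other library. Markers of other cells were present as well. Lyz2 of myeloid cells stood between 1779 and 38384 CPM, and fewer cells of a type and less RNA per cell cannot be told apart in bulk RNA.

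Fitted fold changes were negative in both populations for 36 of 40 genes of DNA replication and mitosis and for 71 of 80 cytosolic ribosomal protein genes, and positive in both for 12 of 21 genes of the NRF2 response. Over all genes tested, 26.5% were negative in both and 24.8% positive in both. Among genes with a mean of at least 20 CPM, these shares were 43.2% and 12.1%. No single gene passed the test of the average AA effect, a quasi-likelihood test of edgeR over 22107 genes with population as a factor: 0 genes were lower (0%) and 0 were higher (0%) at an adjusted p under 0.05, and the smallest adjusted p was 0.310. At an unadjusted p under 0.05, 945 genes (4.27%) were lower and 1014 (4.59%) were higher. Other tools made calls on the same counts. DESeq2 called 356 genes, 291 of them higher, and limma's voom with quality weights called 104 genes, 68 of them lower. The tools shared 28 of the lower and 28 of the higher calls.

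Because no gene was called, genes were ordered by a plain criterion without a test: all 3 libraries with AA on one side of all 3 without AA, on the same side in both populations. By this criterion 338 genes (1.53%) stood lower and 63 (0.285%) stood higher with AA. The share that would be apart with no effect of AA was not computed, so these counts alone do not show a shared effect. A further 135 genes were apart in both populations but lower in αβ and higher in γδ, and 40 the reverse. The number of genes higher in both, 63, thus lay between these 2 counts of opposed genes. The 338 genes made up 14.0% of the 2411 that were lower without overlap in αβ and 21.6% of the 1565 in γδ. The 63 higher genes were 3.45% of the 1828 in αβ and 5.86% of the 1075 in γδ. Without replicate 3 without AA of both populations the criterion is easier to meet, and 753 genes stood lower and 134 higher. Leaving out γδ with AA replicate 2 gave 771 genes in place of 401, γδ without AA replicate 3 gave 692, αβ with AA replicate 3 gave 646 and αβ with AA replicate 2 gave 639.

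The balance between lower and higher genes depended on how the libraries were scaled. With DESeq2's size factors in place of TMM, the median log2 fold change of all genes moved by 0.23, from -0.03 to 0.20, and 112 genes stood lower and 119 higher without overlap. All 112 were among the 338, and all of the 63 were among the 119. Library size alone gave 238 lower and 84 higher, a filter of 5 CPM in 3 libraries 169 and 65, and leaving out Gm10800 and Gm21738, which lie in repeats, gave 211 and 76. Most counts of gene lists are therefore given by both scalings, and levels are TMM-scaled CPM.

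Across genes the AA effects of the populations had little in common. Pearson's r between the log2 fold changes of αβ and γδ was 0.0006 over all genes, and 0.071 over the 7202 genes with a mean of at least 20 CPM. Without both replicates 3 it was 0.065 and 0.096. The genes are not independent and share the fit. Among those 7202 genes, 264 (3.67%) stood lower and 15 (0.208%) higher without overlap in both populations. At an unadjusted p under 0.05, 808 (11.2%) were lower and 127 (1.76%) were higher. The fitted fold change was negative in both populations for 43.2% of them and positive in both for 12.1%. Without both replicates 3 the 264 and 15 became 548 and 47. With size factors they became 70 (0.972%) and 51, and 314 genes (4.36%) were lower and 352 (4.89%) higher at an unadjusted p under 0.05. Counts of gene lists below are to be read beside these shares.

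**Figure D1:**
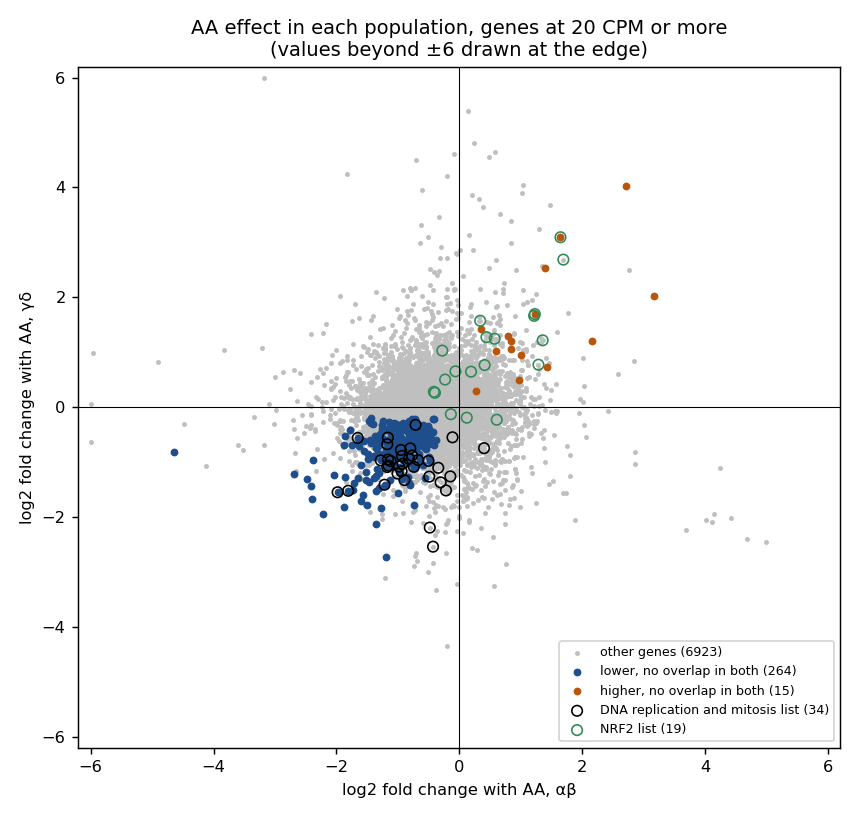
Each point is a gene with a mean of at least 20 CPM, with its fitted log2 fold change with AA in αβ cells on the x axis and in γδ cells on the y axis; values beyond 6 on either side are drawn at the edge. The 264 genes lower without overlap in both populations lie in the lower left part with most of the DNA replication and mitosis list (black rings), and the 15 higher genes lie in the upper right part with several genes of the NRF2 list (green rings).

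Genes of DNA replication and mitosis stood lower with AA in both populations. Of the 40 tested, 36 had a negative fitted fold change in both populations and none a positive one in both, 14 (35.0%) were lower without overlap, and 25 had an unadjusted p under 0.05 in this direction. Of all genes at 20 CPM or more, 43.2% were negative in both, 3.67% were lower without overlap and 11.2% had such a p. The median log2 fold change of the list was -0.92 for the average effect, -0.86 in αβ and -1.05 in γδ, beside -0.03, 0.12 and -0.06 over all genes. With size factors 6 were lower without overlap, 17 had an unadjusted p under 0.05, and 30 were negative in both. Without both of these replicates 3, 17 were lower without overlap and the median was -0.96. None passed the adjusted threshold by edgeR, while voom called 10 of them lower, among them Mcm3, Mcm5, Mcm7, Tk1, Rrm1, Dut, Top2a and Bub1b.

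The MCM proteins form the helicase that opens DNA at replication origins. Mcm7 stood at 283, 298 and 292 CPM in αβ without AA and at 148, 114 and 128 CPM with AA, and in γδ at 182, 299 and 202 CPM without AA and 153, 111 and 88.6 CPM with AA. The groups did not overlap in either population, and the γδ library closest to its counterparts was replicate 1 with AA. The log2 fold change of Mcm7 was -1.16 ± 0.29 (SE) in αβ and -0.95 ± 0.29 in γδ, with an average of -1.06 ± 0.20 (edgeR adjusted p = 0.310, limma voom adjusted p = 0.0238). Mcm5 gave -1.12 ± 0.30 and -0.98 ± 0.30 and Mcm3 gave -0.95 ± 0.30 and -0.78 ± 0.30, both without overlap in both populations. In the γδ library with AA replicate 1, Mcm5 was at 226 CPM, next to 229 CPM in the lowest γδ library without AA, so the gap between these groups was narrow. Mcm4 was also without overlap, while Mcm2 and Mcm6 overlapped, with average log2 fold changes of -0.77 ± 0.25 and -0.92 ± 0.23.

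Promoters of the MCM genes are shown because they hold the letters of the site for E2F, the transcription factor family of the G1/S transition. The sequences are RefSeq's on build GRCm38.p6, 250 bases before to 50 after the start of the gene, with the match in capitals. Mcm5 lies on the plus strand at chr8:75109259-75109558 and Mcm7 on the minus strand at chr5:138171834-138172133.
Mcm5: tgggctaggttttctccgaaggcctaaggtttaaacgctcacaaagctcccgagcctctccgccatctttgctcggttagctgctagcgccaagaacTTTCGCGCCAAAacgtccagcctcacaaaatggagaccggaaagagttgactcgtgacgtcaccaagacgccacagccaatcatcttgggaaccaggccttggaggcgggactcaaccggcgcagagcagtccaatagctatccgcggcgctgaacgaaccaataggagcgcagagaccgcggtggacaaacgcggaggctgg
Mcm7: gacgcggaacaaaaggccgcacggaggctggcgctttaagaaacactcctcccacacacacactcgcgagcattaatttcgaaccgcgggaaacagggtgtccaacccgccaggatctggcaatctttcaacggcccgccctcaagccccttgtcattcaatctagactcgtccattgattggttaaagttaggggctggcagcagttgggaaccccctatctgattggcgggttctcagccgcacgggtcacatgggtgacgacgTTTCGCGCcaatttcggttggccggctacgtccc
The motifs TTTCGCGC and TTTGGCGC were chosen after the data were seen and searched on both strands. In Mcm5 a match to each overlaps the other, starting 153 and 149 bases before the gene start, and in Mcm7 the match starts 16 bases after it. Among 31 genes of the list with a promoter in the table, 6 (19.4%) held either motif, namely Cdk1, Cdt1, Mcm3, Mcm5, Mcm6 and Mcm7. It was 13 of 237 (5.49%) among the genes lower without overlap in both populations, 0 of 49 among those higher, and 201 of 13973 (1.44%) among all genes tested. These are letter matches and not binding sites.

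Enzymes that supply nucleotides stood lower in the same way. Tk1, thymidine kinase of the salvage pathway, was at 124, 129 and 125 CPM in αβ without AA and at 34.1, 50.6 and 77.7 CPM with AA. In γδ it was at 84.3, 107 and 185 CPM without AA and at 55.3, 43.1 and 43.2 CPM with AA. The groups were apart in both populations, and the average log2 fold change was -1.31 ± 0.26 (edgeR adjusted p = 0.310). Rrm1, the large subunit of ribonucleotide reductase, gave -1.12 ± 0.29 without overlap, and Dut, which removes dUTP, gave -0.91 ± 0.23 without overlap. Rrm2, the small subunit, overlapped, at -0.72 ± 0.41.

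Bub1b, the checkpoint kinase of the spindle, stood at 66.8, 105 and 65.4 CPM in αβ without AA and at 20.7, 33.2 and 13.6 CPM with AA. In γδ it stood at 43.9, 75.6 and 96.0 CPM without AA and at 27.2, 20.5 and 27.4 CPM with AA. Every library with AA was below every library without it, with an average log2 fold change of -1.67 ± 0.31 (edgeR adjusted p = 0.310). Spc24, a subunit of the kinetochore complex that holds microtubules, had the larger average of the pair, -1.74 ± 0.33, at -1.35 ± 0.45 in αβ and -2.13 ± 0.46 in γδ. It was the 1 gene edgeR called when αβ with AA replicate 1 was left out. Top2a, the topoisomerase that untangles sister chromatids, gave -1.03 ± 0.22 without overlap, and Pmf1 of the kinetochore -1.14 ± 0.25. Not all proliferation genes were apart: Mki67, the common marker of cycling cells, gave -0.86 ± 0.29 with overlap, Pcna, the sliding clamp, -0.49 ± 0.55, and Bub1 -0.17 ± 0.31.

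**Figure D2:**
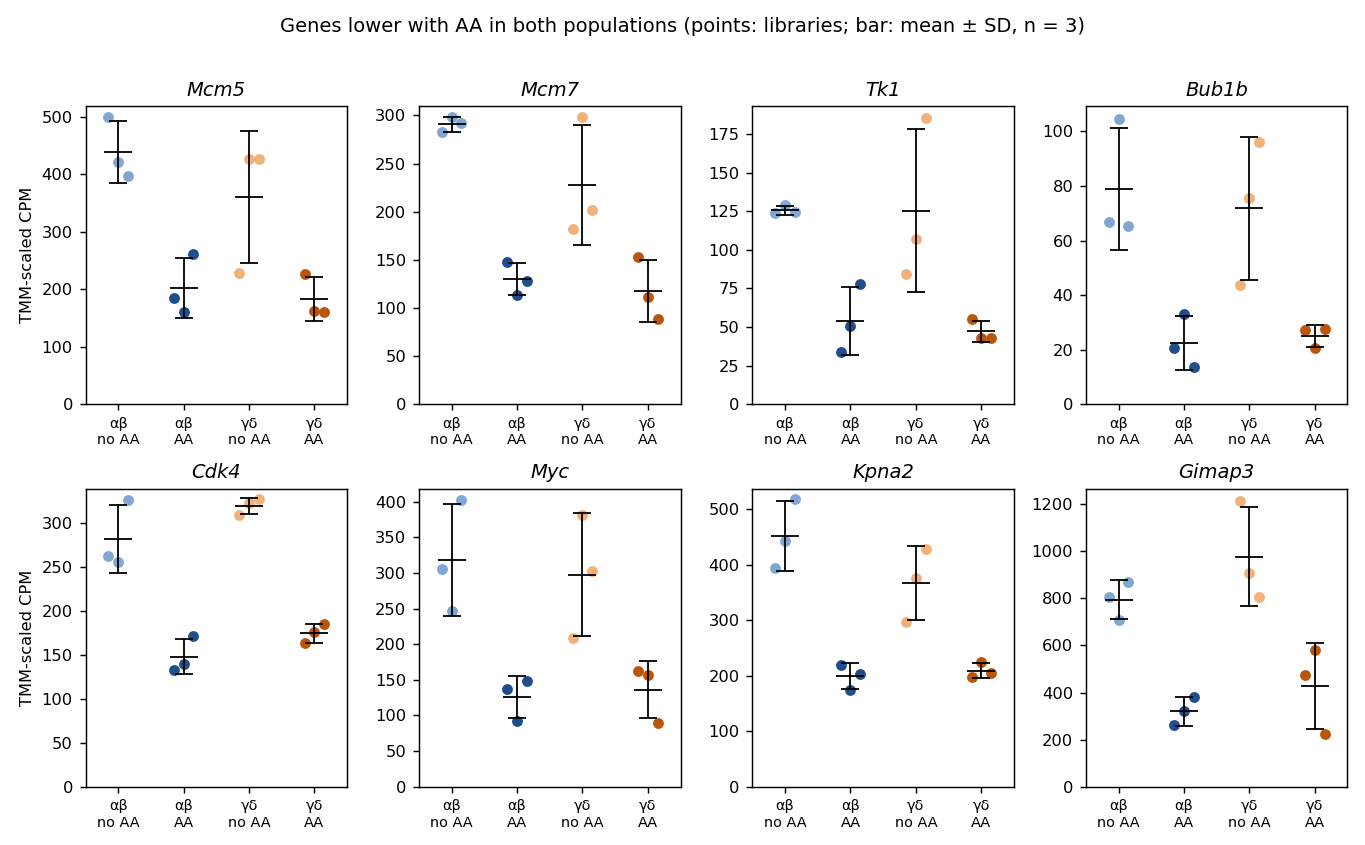
TMM-scaled CPM of 8 genes in the 12 libraries, 1 point per library, by population and AA, with the mean and SD of 3 libraries as black bars and each y axis starting at 0. In each panel all 3 libraries with AA lie below all 3 without AA in both populations.

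Growth regulators upstream of division stood lower as well. Cdk4, the cyclin D-dependent kinase that starts the cell cycle, was the most even of them, at 263, 256 and 327 CPM in αβ and 309, 323 and 327 CPM in γδ without AA. With AA it was at 133, 140.4 and 172 CPM in αβ and at 163, 176 and 185 CPM in γδ. No library with AA reached any library without it, and the log2 fold changes were -0.93 ± 0.23 in αβ and -0.87 ± 0.23 in γδ (edgeR adjusted p of the average 0.310; limma voom adjusted p = 0.0106). Myc, the transcription factor that drives growth and ribosome production in activated T cells, stood at 305, 247 and 402 CPM in αβ without AA and at 138, 92.2 and 148 CPM with AA. In γδ Myc was at 209, 381 and 303 CPM without AA and at 162, 157 and 89.8 CPM with AA. The groups were apart in both populations, at an average of -1.23 ± 0.24, and still apart with size factors. Kpna2, an importin that carries proteins into the nucleus, had the smallest unadjusted p of all rule-named genes lower with AA, 5.8e-05, with an average log2 fold change of -0.997 ± 0.18. Hat1, a histone acetyltransferase of newly made histones, gave -1.38 ± 0.25 in αβ and -0.65 ± 0.25 in γδ, and the difference between the populations had an edgeR adjusted p of 0.523.

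The Cdk4 promoter is shown since it carries the letters CACGTG, the E-box bound by Myc and other factors, at 4 places marked in capitals. It lies on the plus strand of GRCm38.p6 at chr10:127063285-127063584, again from RefSeq.
Cdk4: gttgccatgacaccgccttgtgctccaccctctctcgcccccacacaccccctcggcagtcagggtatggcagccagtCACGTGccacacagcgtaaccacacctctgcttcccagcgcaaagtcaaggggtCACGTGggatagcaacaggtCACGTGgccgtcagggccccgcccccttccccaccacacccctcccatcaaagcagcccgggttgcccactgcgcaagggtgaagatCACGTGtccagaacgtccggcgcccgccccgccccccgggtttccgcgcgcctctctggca
The matches start 172, 118, 98 and 11 bases before the gene start. This motif, which reads the same on both strands, was also chosen after the data were seen. Among the genes lower without overlap, 27 of 237 (11.4%) with a promoter held it, Hat1 and Ldha among them, beside 6 of 49 (12.2%) of those higher and 10.1% of all genes tested. The share in the lower genes was thus near that of all genes.

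Ribosomal protein genes stood lower in most cases. Of 80 cytosolic ribosomal protein genes, 71 had negative fold changes in both populations and 2 positive, 38 had an unadjusted p under 0.05 in this direction, and 9 (11.3%) were lower without overlap. Their median log2 fold changes were -0.68 in αβ and -0.86 in γδ. With size factors 64 stayed negative in both, 22 had an unadjusted p under 0.05 and none was free of overlap, and without both replicates 3, 25 had such a p and 11 were free of overlap. Of all genes at 20 CPM or more, 43.2% were negative in both, 3.67% were lower without overlap and 11.2% had such a p by TMM. Family members were taken by their name, and their counts are uncertain where pseudogene copies share reads. Rps9, a protein of the small subunit, stood at 1050.0, 1592 and 1493 CPM in αβ without AA and at 434, 772 and 859 CPM with AA. In γδ it stood at 1646, 1191 and 1478 CPM without AA and at 777, 931 and 942 CPM with AA, with no overlap and an average log2 fold change of -0.85 ± 0.20 (edgeR adjusted p = 0.364). Rpl3 and Rpl15 of the large subunit gave -0.87 ± 0.21 and -0.78 ± 0.20, and Rpl15 was the 1 member that voom called.

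Factors around the ribosome were less even, and their shares negative in both lay nearer to the 43.2% of all genes at 20 CPM or more. Of 62 translation initiation and elongation factors, 33 were negative in both populations and 4 positive, 9 were lower without overlap and 17 had an unadjusted p under 0.05. With size factors these became 1 and 7, with 24 negative in both, and without both replicates 3 they were 11 and 14. The median was -0.71 in αβ and -0.20 in γδ. Eef1b2, an exchange factor of elongation, gave -0.77 ± 0.24 and -0.65 ± 0.24 without overlap. The opposite value came from Eif2ak3, the kinase PERK that slows translation under stress of the endoplasmic reticulum, at 1.75 in αβ and 1.05 in γδ. Of 18 cytosolic aminoacyl-tRNA synthetases, which charge tRNAs with amino acids, 10 were negative in both and 3, Dars, Vars and Hars, were lower without overlap; with size factors 8 were negative in both and 1 was free of overlap, and without both replicates 3 again 3 were. All 8 subunits of CCT, the chaperonin that folds actin and tubulin, were negative in both populations by either scaling. Of these, 5 were lower without overlap, 8 had an unadjusted p under 0.05 and the median was -0.69; with size factors 1 and 4 were so, and the median was -0.46. Without both replicates 3 they were 6 and 7. Cct6a gave -0.92 ± 0.25 in αβ and -0.61 ± 0.25 in γδ. Npm1, the nucleolar protein nucleophosmin, gave -0.87 ± 0.27 and -0.93 ± 0.27 without overlap.

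Mitochondrial ribosomal protein genes and nuclear genes of the respiratory chain were mostly negative in both populations, but with size factors few of them passed an unadjusted p under 0.05, beside 4.36% of all genes at 20 CPM or more. Of 75 mitochondrial ribosomal protein genes, 60 were negative in both populations and 2 positive, 7 were lower without overlap and 17 had an unadjusted p under 0.05, or 3 and 6 with size factors and 13 and 6 without both replicates 3. Mrpl12 was at 193, 239 and 315 CPM in αβ without AA and at 69.0, 74.0 and 142 CPM with AA. In γδ it was at 279, 226 and 281 CPM without AA and at 157, 155 and 113 CPM with AA, at an average log2 fold change of -1.14 ± 0.24 (edgeR adjusted p = 0.361). No library overlapped. Of 43 nuclear respiratory chain genes, 35 were negative in both and none positive in both, 4 were lower without overlap and 11 had an unadjusted p under 0.05, with a median of -0.52. With size factors 27 were negative in both, 1 was free of overlap and 3 had such a p, and without both replicates 3 the last counts were 7 and 7. Sdhc, a membrane anchor of succinate dehydrogenase, gave -0.85 ± 0.25 without overlap, and Atp5b of ATP synthase -1.001 in αβ and -0.26 in γδ. Of the 10 mitochondrially encoded genes tested, none was negative in both populations and 2 were positive in both, with a median of 0.14. Of 39 proteasome subunits 24 were negative in both, 8 had an unadjusted p under 0.05 and 2 were lower without overlap, a share near the 3.67% of all genes at 20 CPM or more. With size factors 15 were negative in both and 1 was free of overlap, and without both replicates 3 it was 3.

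**Figure D3:**
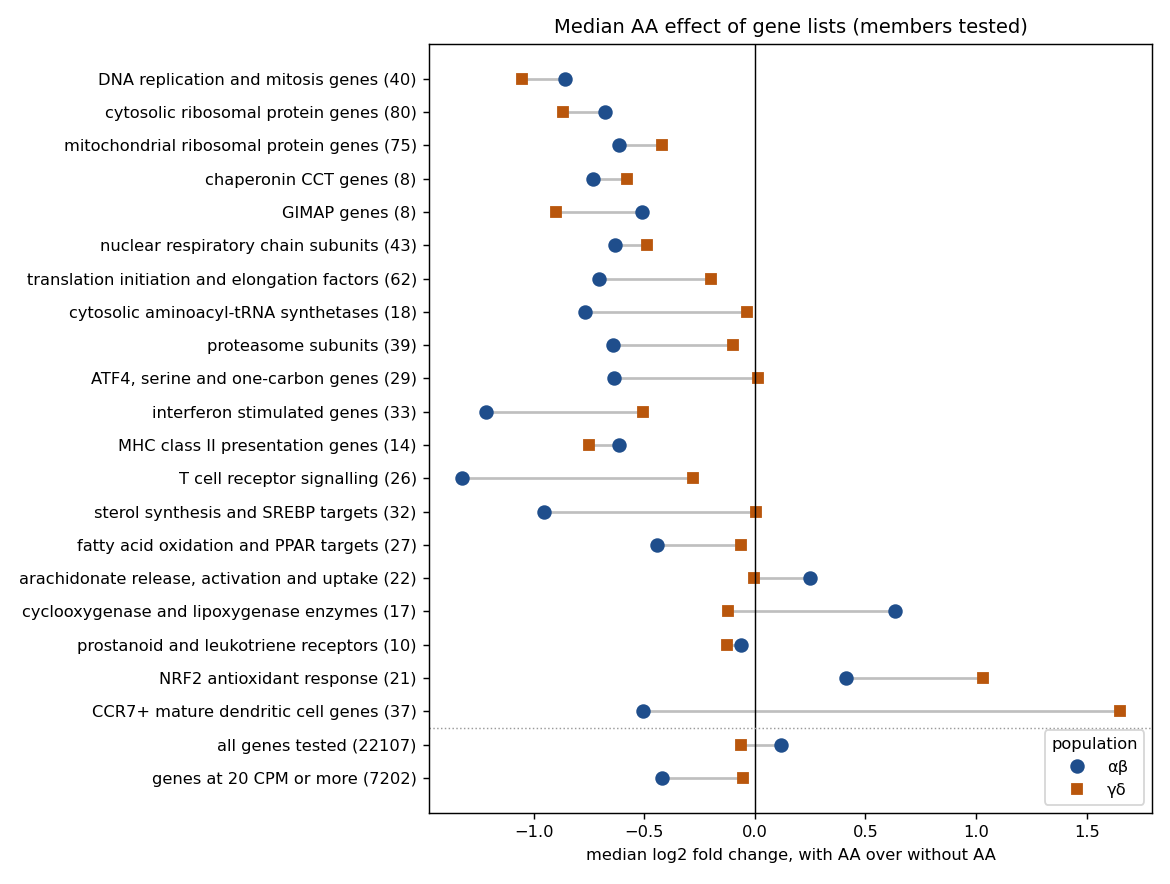
Median fitted log2 fold change with AA of the tested members of 20 gene lists and of all genes, in αβ cells (circles) and γδ cells (squares), with the number of members tested in brackets and a grey line joining the populations. Lists of replication, ribosomal proteins, CCT and GIMAP genes lie left of 0 in both populations, the NRF2 list lies right of 0 in both, and the CCR7+ dendritic cell list lies on opposite sides, at -0.50 and 1.65.

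Within central carbon metabolism single genes stood apart while the lists were mixed. Psat1 and Phgdh, enzymes of serine synthesis, stood lower without overlap in both populations. Psat1 was at 389, 361 and 316 CPM in αβ without AA and at 60.8, 89.0 and 221 CPM with AA, and in γδ at 208, 365 and 305 CPM without AA and 137, 154 and 58.3 CPM with AA. Its average log2 fold change was -1.43 ± 0.32, and that of Phgdh -0.92 ± 0.22 (edgeR adjusted p = 0.364 for both); voom called both. Mthfd1l and Shmt1 of the folate cycle, at -0.92 ± 0.25 and -1.17 ± 0.35, were also without overlap. Of the 29 genes in the list of ATF4, serine and one-carbon genes, 11 were negative in both and 3 positive in both, or 11 and 6 with size factors, 4 were lower without overlap, or 2 with size factors and 6 without both replicates 3, and Atf4 itself was at -0.64 ± 0.27 in αβ and 0.34 ± 0.27 in γδ. Ldha, lactate dehydrogenase, gave -1.66 ± 0.27 in αβ and -0.68 ± 0.27 in γδ without overlap. Of the 30 genes of glycolysis and hypoxia, Ldha included, 12 were negative in both populations and 6 positive in both, or 9 and 9 with size factors, and Ldha was the 1 free of overlap by either scaling, beside 3 lower without both replicates 3. The 12 negative in both were Ldha, Pgk1, Tpi1, Eno1, Pfkp, Slc2a3, Pdk1, Gapdh, Pfkl, Pgam1, Slc16a1 and Aldoc. The 6 positive in both were P4ha2, Egln3 and Vegfa, which respond to hypoxia, and Pfkfb3, Pfkm and Eno2 of glycolysis. P4ha2, Egln3 and Vegfa were low, with group means of at most 7.10 CPM. Their average log2 fold changes were 3.08 ± 1.64, 0.98 ± 1.09 and 0.73 ± 1.37.

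GIMAP genes, small GTPases that keep resting lymphocytes alive, stood lower with AA. All 8 tested were negative in both populations, 3 were lower without overlap and 5 had an unadjusted p under 0.05, while with size factors 5 were negative in both, 2 were free of overlap and 3 had such a p, and without both replicates 3 the last counts were 4 and 4. Of all genes at 20 CPM or more, 43.2% were negative in both, 3.67% were lower without overlap and 11.2% had such a p by TMM. Gimap3 was at 806, 706 and 871 CPM in αβ without AA and at 260.2, 321 and 383 CPM with AA. In γδ it was at 1216, 909.6 and 808 CPM without AA and at 475, 581 and 226 CPM with AA, and no library overlapped. The log2 fold changes were -1.31 ± 0.32 and -1.19 ± 0.32, and voom called Gimap3 (adjusted p = 0.0200). Gimap4, which speeds the death of T cells in mice, gave -1.21 ± 0.27 without overlap.

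Interferon-stimulated genes were uneven. Of 33, 21 were negative in both populations and 5 positive in both, 3 were lower without overlap and 6 had an unadjusted p under 0.05. With size factors 18 were negative in both, 2 were free of overlap and 4 had such a p, and without both replicates 3 the last counts were 5 and 3. Over all genes tested by TMM, 26.5% were negative in both, 1.53% were lower without overlap and 4.27% had such a p. At 20 CPM or more these shares were 43.2%, 3.67% and 11.2%. The median of the interferon list was -1.22 in αβ and -0.51 in γδ. Zbp1, a sensor of left-handed nucleic acid, stood at 67.5, 56.6 and 97.5 CPM in αβ without AA and at 18.2, 21.0 and 28.6 CPM with AA. In γδ Zbp1 stood at 61.0, 83.5 and 46.7 CPM without AA and at 27.8, 39.9 and 5.90 CPM with AA, with an average of -1.54 ± 0.40 and no overlap. Irf9, a part of the interferon transcription factor, stood lower without overlap at -0.89 ± 0.39, and its spread with AA was wide, from 22.7 to 136 CPM in αβ and from 30.3 to 139 CPM in γδ. Mx1, an antiviral GTPase, went the other way at 1.96 ± 0.70 and was apart in γδ alone. In αβ it overlapped, at 7.15, 4.02 and 18.4 CPM without AA and at 58.2, 1.69 and 15.5 CPM with AA. Ms4a4c, a membrane protein that lymphocytes express, gave -1.27 ± 0.44 in αβ and -1.84 ± 0.45 in γδ without overlap.

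MHC class II genes were negative in both populations for 12 of 14, at a median of -0.76, and 4 had an unadjusted p under 0.05, but none was free of overlap. With size factors 10 were negative in both and 1 had such a p, and without both replicates 3 it was 4. Of all genes at 20 CPM or more, 43.2% were negative in both and 11.2% had such a p by TMM. B cell markers moved with the class II genes. The B and plasma cell markers, of which 16 were tested, summed to 12304, 19614 and 3104 CPM in αβ without AA and to 5545, 18850 and 9823 CPM with AA, and 11 were negative in both populations. In γδ they summed to 2466, 4132 and 13201 CPM without AA and to 1713, 3843 and 1654 CPM with AA. The class II sums, between 3904 and 26486 CPM, put the libraries in the same order within 3 of the 4 groups, and γδ with AA had the same highest library. The part of B cells in the class II values was not tested.

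Antioxidant genes controlled by NRF2 were the list with the most positive values in both populations among those of the plot of list medians. Of 21 tested, 12 were positive in both populations and 1 was negative in both, 8 (38.1%) had an unadjusted p under 0.05 in this direction, and 2 were higher without overlap. With size factors 16 were positive in both, 10 had such a p and 3 were free of overlap. Without both replicates 3, 11 had such a p and 5 were free of overlap. Size factors also moved the median of all genes up by 0.23. Of all genes at 20 CPM or more, 1.76% were higher at such a p by TMM and 4.89% with size factors. Those higher without overlap were 15 and 51 in the same order. The median log2 fold change of the NRF2 list was 0.86 on average, 0.41 in αβ and 1.03 in γδ. None passed the adjusted threshold by edgeR, and voom called Nqo1 and Sqstm1.

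Nqo1, a quinone reductase and classic NRF2 target, stood at 16.7, 5.02 and 54.7 CPM in αβ without AA and at 92.6, 86.2 and 60.0 CPM with AA. In γδ it stood at 29.1, 10.3 and 9.83 CPM without AA and at 91.3, 62.8 and 265 CPM with AA. The groups did not overlap, and the αβ library nearest to those with AA was replicate 3 without AA, 1 of the pair that went against their labels. The log2 fold change of Nqo1 was 1.64 ± 0.76 in αβ and 3.09 ± 0.80 in γδ, on average 2.37 ± 0.58 (edgeR adjusted p = 0.364; limma voom adjusted p = 0.0238). Gclc, the catalytic subunit that limits glutathione synthesis, was at 17.3, 12.9 and 32.9 CPM in αβ without AA and at 54.8, 53.4 and 39.4 CPM with AA. In γδ Gclc was at 35.4, 20.1 and 19.3 CPM without AA and at 41.1, 69.7 and 131 CPM with AA, again apart in both populations, with an average of 1.46 ± 0.36. Its partner Gclm gave 1.29 ± 0.58 with overlap, and Slc7a11, the cystine importer, gave 1.44 ± 0.51. Slc7a11 was apart in γδ, and in αβ only replicate 3 without AA, at 57.6 CPM, overlapped with those with AA.

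Other members were less even. Osgin1, an oxidative stress growth inhibitor, gave 2.19 ± 0.63 on average, and Txnrd1, thioredoxin reductase, 0.91 ± 0.30. Sqstm1, the autophagy adaptor p62, gave 0.34 ± 0.30 in αβ and 1.57 ± 0.30 in γδ, where it was at 1495, 1298 and 885 CPM without AA and at 3514, 2314 and 5124 CPM with AA. The difference between the populations had an edgeR adjusted p of 0.442. Hmox1, heme oxygenase, ranged from 50.01 to 908 CPM in αβ without AA and from 531 to 1312 CPM with AA, and from 179 to 1558 CPM in γδ without AA and 571 to 2016 CPM with AA, so its groups overlapped. Keap1, the inhibitor of NRF2, and Nfe2l2, the gene of NRF2 itself, gave -0.07 ± 0.31 and 0.29 ± 0.30. Macrophages also express many of these genes, and the macrophage and monocyte markers, of which 22 were tested, summed to 2620 to 30089 CPM in αβ without AA and 7918 to 18578 CPM with AA. In γδ the sums were 5386 to 44194 CPM and 9747 to 26954 CPM, 9 markers were negative in both populations and 3 positive in both, and C1qc, Cd5l, Clec4f, Timd4 and Vsig4 were at 0 in at least 1 group. The part of macrophages in the NRF2 values was not tested.

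The promoters of Gclm and Txnrd1 are shown because they hold the letters of the antioxidant response element, TGACNNNGC, found here in the reverse direction and marked in capitals. Both are on the plus strand of GRCm38.p6 in RefSeq, Gclm at chr3:122245307-122245606 and Txnrd1, at 1 of its 3 listed starts, at chr10:82858956-82859255.
Gclm: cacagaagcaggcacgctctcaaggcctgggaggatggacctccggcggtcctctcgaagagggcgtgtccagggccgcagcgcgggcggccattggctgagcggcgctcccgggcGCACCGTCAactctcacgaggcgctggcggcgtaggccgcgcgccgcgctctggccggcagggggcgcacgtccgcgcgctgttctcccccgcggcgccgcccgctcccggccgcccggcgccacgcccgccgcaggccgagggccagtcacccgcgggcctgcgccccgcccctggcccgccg
Txnrd1: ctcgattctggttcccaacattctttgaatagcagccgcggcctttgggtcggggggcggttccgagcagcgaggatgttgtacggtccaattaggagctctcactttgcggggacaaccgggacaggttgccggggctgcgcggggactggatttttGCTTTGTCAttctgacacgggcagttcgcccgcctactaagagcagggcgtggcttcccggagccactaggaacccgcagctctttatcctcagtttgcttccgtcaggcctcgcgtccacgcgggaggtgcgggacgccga
The matches start 134 bases before the gene start in Gclm and 92 bases before it in Txnrd1. Of 18 genes of the list with a promoter in the table, 8 (44.4%) held the motif on either strand, beside 15.9% of all 13973 genes tested that have one. They were G6pdx, Gclm, Me1, Nfe2l2, Pgd, Prdx1, Srxn1 and Txnrd1. The window of Nqo1 held no match. Among genes higher without overlap 8 of 49 (16.3%) held it, near the share of all genes, and among those lower 44 of 237 (18.6%). The cAMP response element TGACGTCA was in 13 of 237 (5.49%) promoters of the lower genes and in 2.96% of all, and the NF-kB site was in 31.2% and 27.7%.

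**Figure D4:**
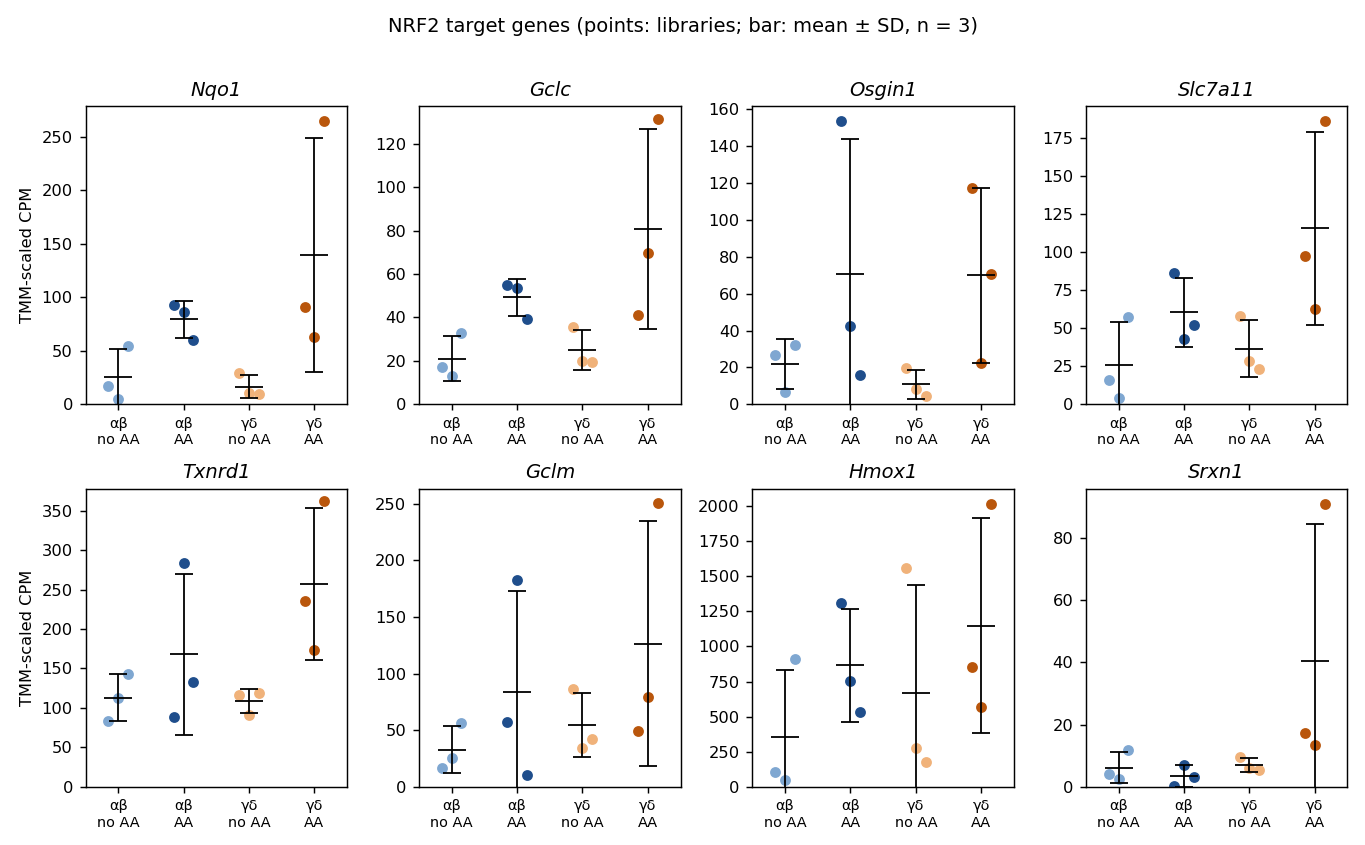
TMM-scaled CPM of 8 NRF2 target genes in the 12 libraries, 1 point per library, by population and AA, with the mean and SD of 3 libraries as black bars and each y axis starting at 0, where lower error bars are cut. Nqo1 and Gclc are apart in both populations, while the other 6 overlap in at least 1 population.

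The remaining genes that stood higher without overlap were mostly of low level. Of the 15 named by the rule, Pde4b, Hivep1, Fam234b and Gclc had a mean above 20 CPM in every group. Pde4b, a phosphodiesterase that breaks down cAMP, was at 99.9, 117 and 98.3 CPM in αβ without AA and at 122, 156 and 124 CPM with AA. In γδ it was at 84.7, 118 and 117 CPM without AA and at 393, 216 and 244 CPM with AA. The groups were apart in both populations but by little in αβ, with log2 fold changes of 0.35 ± 0.29 and 1.42 ± 0.29. Hivep1, a zinc finger transcription factor, gave 0.84 ± 0.44 and 1.20 ± 0.44. Clu, the chaperone clusterin, was at 0.646, 0 and 16.2 CPM in αβ without AA and 36.6, 19.3 and 55.9 CPM with AA. In γδ Clu was at 7.08, 5.57 and 4.94 CPM without AA and at 120.4, 62.3 and 103 CPM with AA, an average log2 fold change of 3.37 ± 0.92 (edgeR adjusted p = 0.364) that voom called. Sema6d, a semaphorin, gave 1.67 ± 0.70 in αβ and 4.85 ± 0.80 in γδ, Adgrg6, an adhesion receptor, 1.58 ± 0.75 and 2.57 ± 0.77, and Arap3, a GTPase-activating protein, 2.16 ± 0.70 and 1.20 ± 0.68. Rnf152, Scn3a, Tmod2 and Gpr137c had averages of 2.99 to 4.16.

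Some genes that stood higher are not known products of T cells. Ttn, which encodes the giant muscle protein titin, stood at 17.5, 9.14 and 7.02 CPM in αβ without AA and at 156, 83.7 and 63.4 CPM with AA. In γδ it stood at 5.78, 4.76 and 7.72 CPM without AA and at 17.03, 9.07 and 48.1 CPM with AA, on average 2.60 ± 0.48 (edgeR adjusted p = 0.310). The olfactory receptor gene Olfr1495 had 0 counts in αβ without AA and 182 with AA, at least 119-fold higher per count of all genes against a floor of 3 counts over the group. In γδ it had 1 and 339 counts, a ratio of 353 with an exact 95% interval of 62.9 to 13981 that covers counting error only. In unscaled CPM, all olfactory receptor genes together summed to 92.1 to 626 CPM in αβ without AA and to 1294 to 4803 CPM with AA. In γδ the sums were 35.3 to 360 CPM and 117 to 575 CPM. The libraries of αβ with AA, which had the fewest counts, thus held the most counts of these genes, and the part of library quality in the higher genes was not tested.

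Genes that handle AA itself showed little that both populations had in common. Of 10 prostanoid and leukotriene receptors tested, 2 were negative in both and 2 positive in both, or 1 and 2 with size factors. Tbxa2r, the thromboxane receptor, was the 1 that stood apart in both, at 11.99, 19.6 and 19.1 CPM in αβ without AA and at 0, 9.66 and 1.08 CPM with AA. In γδ it was at 42.6, 50.6 and 26.4 CPM without AA and at 13.3, 21.6 and 0.110 CPM with AA, an average of -1.99 ± 0.98 (edgeR adjusted p = 0.602). For the receptors that raise cAMP the values of the populations are given side by side. Ptgir, the prostacyclin receptor, was at 22.9, 12.7 and 29.8 CPM in αβ without AA and at 68.9, 103 and 90.9 CPM with AA, while its γδ libraries overlapped, with log2 fold changes of 2.01 ± 0.48 and 0.09 ± 0.46. Ptger4, a receptor of prostaglandin E2, gave -0.78 ± 0.49 in αβ and 2.14 ± 0.51 in γδ, and its libraries were apart in both populations in opposite directions. The difference had an edgeR adjusted p of 0.442 for each of these genes. Ptger2, the other receptor of this kind, gave -0.25 ± 0.87 and -0.34 ± 0.87 with overlap.

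Of 17 cyclooxygenase and lipoxygenase pathway enzymes, 3 were negative in both populations and 5 positive in both, or 2 and 6 with size factors, none was free of overlap, and 1, Ephx2, had an unadjusted p under 0.05. Ptgs2, the inducible cyclooxygenase, was at 14.2, 1.86 and 8.47 CPM in αβ without AA and 49.1, 8.08 and 0 CPM with AA, and in γδ at 3.91 to 9.16 CPM without AA and 3.55 to 23.7 CPM with AA. These values overlapped, at an average of 1.01 ± 0.97. Of 22 genes for release, activation and uptake, 6 were negative in both and 8 positive in both, or 4 and 11 with size factors. Acsl5, which couples long-chain fatty acids to coenzyme A, stood lower without overlap by both scalings. It was at 159, 139 and 168 CPM in αβ without AA and at 86.3, 71.8 and 65.6 CPM with AA, with log2 fold changes of -1.06 ± 0.26 in αβ and -0.34 ± 0.26 in γδ. In γδ all 3 libraries with AA were at 118 CPM, and those without AA were at 134, 179 and 135 CPM. Mboat1, which puts fatty acids onto lysophospholipids, gave -0.85 ± 0.42 without overlap.

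**Figure D5:**
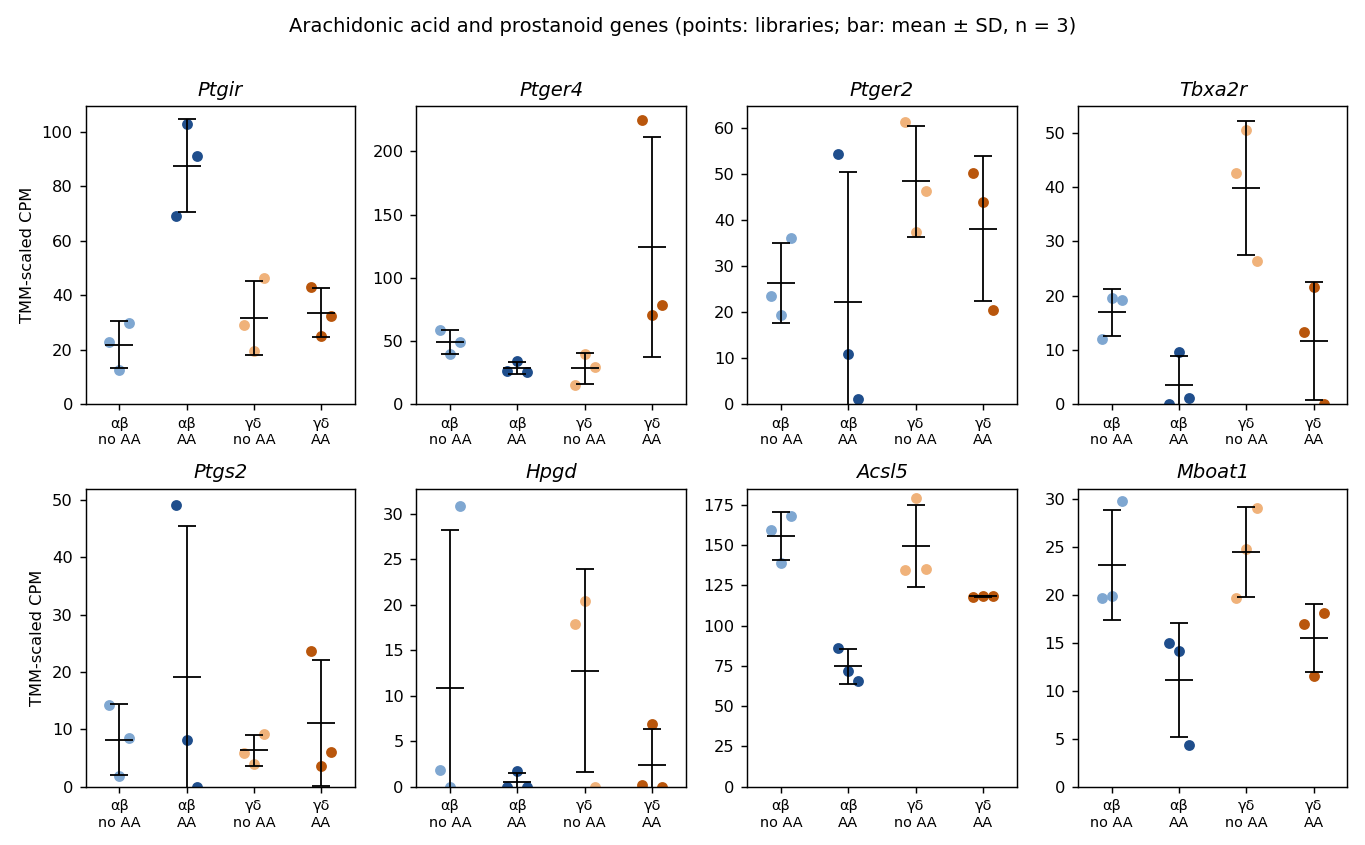
TMM-scaled CPM of 8 genes of AA use and prostanoid signalling in the 12 libraries, 1 point per library, by population and AA, with the mean and SD of 3 libraries as black bars and each y axis starting at 0, where lower error bars are cut. Tbxa2r, Acsl5 and Mboat1 lie lower with AA without overlap in both populations, Ptgir is apart in αβ alone, and Ptger4 is apart in opposite directions.

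Fatty acid oxidation and PPAR target genes were mixed. Of 27, 12 were negative in both populations and 5 positive in both, and 3 were lower without overlap: Etfa and Hadhb of the oxidation pathway, at -0.81 ± 0.25 and -0.61 ± 0.23, and the mitochondrial carrier Ucp2, at -0.44 ± 0.16. With size factors none of these was free of overlap, 11 were negative in both and 11 positive in both. Of all genes at 20 CPM or more, 43.2% were negative in both, 12.1% positive in both and 3.67% lower without overlap by TMM. Pdk4 and Angptl4, common markers of PPAR activity, gave 2.76 ± 1.62 and -2.24 ± 0.87. Of 32 sterol synthesis genes 16 were negative in both populations and 1 positive in both, or 15 and 4 with size factors, but the median was -0.95 in αβ and 0.01 in γδ. Fasn, fatty acid synthase, gave -1.09 ± 0.41 and -0.74 ± 0.40, and Scd1 gave -1.20 ± 0.97 and -3.11 ± 1.04, both with overlap. Msmo1 was lower without overlap in both populations, at an average of -0.31 ± 0.21.

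Genes of T cell receptor signalling had a negative median in both populations, larger in αβ, while the medians of maturing dendritic cell genes lay on opposite sides. Of 26 receptor signalling genes 14 were negative in both populations, or 11 with size factors, with a median of -1.32 in αβ and -0.28 in γδ, and none was free of overlap in both. Lck, Trat1, Cd3d, Cd5, Lcp2, Cd2 and Cd3g were lower at an edgeR unadjusted p under 0.05, as were 11.2% of all genes at 20 CPM or more. Lck, the kinase that starts the receptor signal, was at 385, 340.0 and 395 CPM in αβ without AA and at 55.6, 77.7 and 86.6 CPM with AA. In γδ it was at 237, 461 and 326 CPM without AA and at 259, 327 and 169.8 CPM with AA, so the groups were apart in αβ and overlapped in γδ. The log2 fold changes of Lck were -2.35 ± 0.33 and -0.44 ± 0.31, and their difference had an edgeR adjusted p of 0.442. Of 37 genes of CCR7+ mature dendritic cells 5 were negative in both and 6 positive in both, or 4 and 14 with size factors, at medians of -0.50 in αβ and 1.65 in γδ. Ccr7 gave -0.04 ± 0.41 and 2.79 ± 0.44, Cytip -0.15 ± 0.25 and 1.89 ± 0.25, and Marcks 0.22 ± 0.36 and 2.86 ± 0.38. For the average AA effect voom called 6 genes of the dendritic cell list higher, Ramp3, Ccr7, Cacnb3, Serpinb9, Cd80 and Apol7c. Marcks was called higher by voom too, and Cytip was not (limma voom adjusted p = 0.0929). The sums of this list were 4533 to 8485 CPM in αβ, 4141 to 5168 CPM in γδ without AA and 13255 to 23837 CPM in γδ with AA.

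No gene passed the test of the difference between the AA effects by edgeR, where the smallest adjusted p was 0.211, for Tbx21 and Cytip among others; 57 genes passed when αβ with AA replicate 2 was left out, 1 when αβ without AA replicate 2 was, and DESeq2 called 318. For the shared genes above, a difference that missed the threshold does not show that the effects were equal. For Cdk4, Mcm7 and Gimap3 each population's estimate lay within 1 SE of the other's, while for Hat1 and Ldha the αβ estimate was more than 2 SE below that of γδ. The SE here is that of 1 population's estimate, which is smaller than the SE of the difference. The difference itself had an edgeR adjusted p of 0.468 for Ldha, and that of Hat1 is given above.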

How the data were processed

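RNA-seq of 12 libraries was analysed from 1 deposited table of raw counts for 55401 genes, which the authors made with Bowtie 0.12.2 and build mm8 among the names in the submitters' processing notes. For the counting tool, annotation and strandedness, nothing is given in the labels. Of the gene identifiers 98.1% match GENCODE M21 with their version, and 55141 have a symbol.

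Counts were filtered with filterByExpr (minimum count 10), scaled by TMM and tested in edgeR 4.0.16 (R 4.3.3) with population and AA as factors, 9 residual degrees of freedom and a common biological coefficient of variation of 1.28. The adjusted p is Benjamini-Hochberg over all 22107 genes, with a threshold of 0.05. A fit of group means gave the effect in each population and the test of their difference. limma 3.58.1 voom and DESeq2 1.42.0 were alternatives, as were other scalings, filters, a replicate block and left-out libraries. The scripts were tested on simulated data.

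The question, gene lists and tests were chosen with earlier results of these data known. In each direction the rule named the 15 genes with the smallest p among those apart in both populations at 5 CPM or more, the 2 members of each list with the smallest p, and 10 fixed genes. Further list members are examples taken after their values were seen. The alternatives without replicate 3 without AA of both populations, the 20 CPM background, families taken by name and the E2F and E-box motifs were chosen after seeing the data. Promoters are RefSeq's on GRCm38.p6, a build other than the mm8 named in the processing notes, and motifs were searched on both strands. An exact interval covers counting error only. No column of the table was left out.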

Additional observations from a re-analysis of the deposited data

How the results depend on the processing

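No gene passed the average AA test; left-out libraries gave 0 to 1 calls, all genes without a filter 200, DESeq2 356 and limma voom 104. The difference between populations had 0 calls, with 217 without a filter, 318 by DESeq2 and 0 to 57 with a library left out. Genes apart in both populations, 401 in all, numbered 231 with size factors, 234 with at least 5 CPM in 3 libraries, 887 without replicate 3 without AA of both populations, and 390 to 771 with a library left out. The cause was not tested, except that fewer libraries make the criterion easier to meet. Correlations of same-numbered deviations were low, 0.066, 0.024 and 0.015 in αβ and -0.036, 0.137 and 0.062 in γδ. The fit with a replicate block gave 0 calls. With 3 libraries per group these values cannot exclude that replicate numbers pair the libraries.

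The direction reversed in 2 of 108 named genes. Trdc, at -0.64, was at 0.20 by voom, 0.72 without both replicates 3, 0.38 with the replicate block and -1.001 to 1.06 with a library left out. Trdv1, at -0.88, was at 0.038, 0.11, 0.25 and -1.15 to 0.40 in the same order. Of 2580 gene alternatives, 2463 stayed on the same side of the threshold and 109 became calls; of 720 alternatives for list medians, 710 moved by less than the spread. The libraries of αβ with AA, with 6036487 to 17021782 counts, limit what can be read of low genes.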
